A study of Homo sapiens with 6 samples.

Results

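The 59 genes described here lie on human chromosome 18, 32 of them on the short arm from USP14 to RNMT and 27 on the long arm from ROCK1 to ADNP2, among the 29804 gene symbols of the count table. They were chosen by name after expression differences between the groups were known on all 6 libraries, so the differences of each arm between groups are given as a description and without a test. Enough counts for testing were present for 58 of them. The exception was PTPRM, a receptor tyrosine phosphatase of cell contacts on the short arm, which held between 0 and 3 counts per library.

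RNA was sequenced from 22Rv1, an established human prostate carcinoma cell line, in 3 groups of 2 libraries that the labels call biological replicates. WT cells were left untreated and harvested at week 0. AM (age matched) cells stayed in culture for 6 weeks with no drug. They were grown beside the 6WP cells, which were exposed on week days to 1 µg/ml of phleomycin, a radiomimetic drug that breaks DNA, and both were harvested at week 6. All groups came from the same line and carry the label WT for genotype, so WT is here the name of a harvest and not of an allele. Both AM and 6WP cells are compared with the same 2 WT libraries, and those comparisons therefore share their controls.

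A centromere divides chromosome 18 into a short arm (18p) and a long arm (18q). The genes of an arm have little in common in function. The 59 genes include kinetochore and centrosome proteins, a Src family kinase, mediators of TGF-beta signalling, splicing factors, proteasome factors and enzymes of lipid metabolism. The level of each transcript is set by the regulation of its own gene and by how many copies of that gene a cell holds. RNA counts do not measure the copies, and their part in the results was not tested.

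Library totals lay between 21222201 and 35311945 counts. Expression is given as CPM, counts scaled to the total of tested genes in a library with TMM factors, and a floor of 3 counts equals 0.0883 to 0.138 CPM per library, which covers counting error only. The 6WP libraries stood further apart than those of the other groups, with a median SD of a gene between replicates of 0.20 on the log2 scale against 0.085 in WT and 0.091 in AM cells. All 10 markers of luminal prostate carcinoma were expressed in every library, from 24.5 CPM upwards. The defining markers of blood cells and basal epithelium, PTPRC, CD3E and KRT5, were at 0 in all libraries, PECAM1, VWF and TP63 did not pass 0.141 CPM, CD68 lay between 2.31 and 3.66, and COL1A1 and COL3A1 between 0.471 and 2.46 CPM.

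The short arm genes were higher in AM than in WT cells, and the long arm genes were higher by less. For each gene the log2 CPM of a library was set against the WT mean, and the median over the genes of an arm was taken relative to that of all 14672 tested genes. For the 31 tested short arm genes this shift was 0.40 and 0.39 in AM replicates 1 and 2, 0.10 and 0.11 in those of 6WP, and 0.024 and -0.024 in those of WT. The 6 values fell into separate ranges, with AM highest and both 6WP libraries above both WT libraries. The WT mean came from the same 2 WT libraries, so their values mirror each other by construction.

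Over the 27 long arm genes the shift was 0.20 and 0.18 in AM replicates 1 and 2, -0.020 and 0.23 in those of 6WP, and 0.026 and -0.026 in those of WT. Both AM libraries again lay above both WT libraries. The 6WP libraries lay on both sides of the AM values, so that the long arm value of 6WP cells rested on 6WP replicate 2. In that library 81.5% of the long arm genes were above their WT mean, beside 51.3% of all tested genes. In 6WP replicate 1 it was 40.7%, beside 50.6% of all tested genes. On the short arm it was 64.5% in 6WP replicate 1 and 61.3% in 6WP replicate 2.

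**Figure D1:**
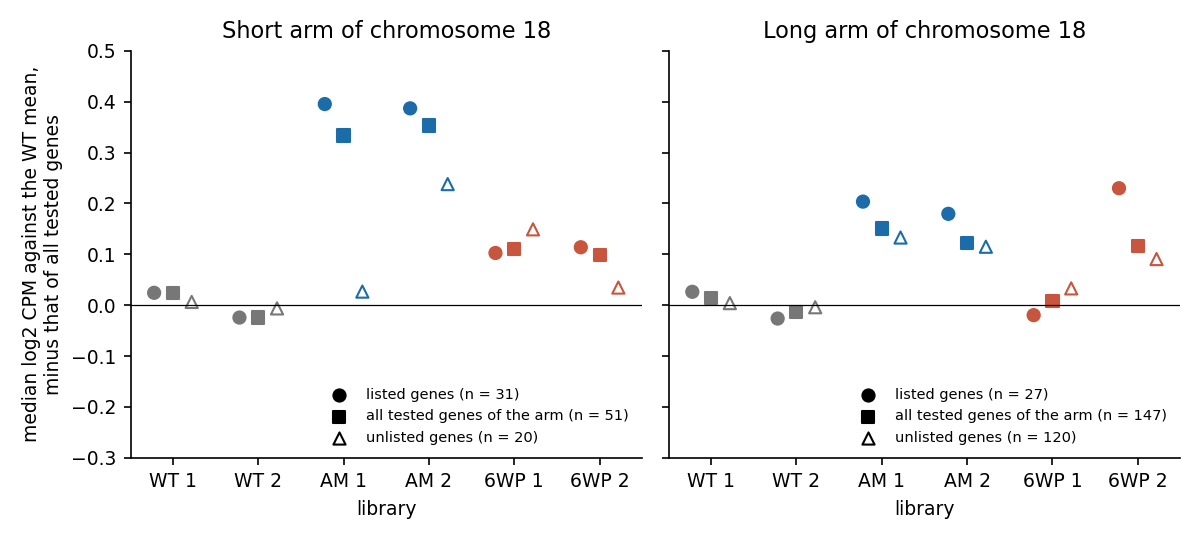
The median log2 CPM of the genes of each arm, against the mean of the WT libraries and relative to all tested genes, is plotted for each library for the listed genes (circles), all tested genes of the arm (squares) and the unlisted genes (open triangles). For the listed short arm genes both AM libraries lie near 0.39 and both 6WP libraries near 0.11, whereas for the long arm genes the 6WP libraries lie at -0.020 and 0.23.

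In terms of group means, the median difference of AM from WT cells lay 0.40 above that of all genes on the short arm, a 1.32-fold higher level, and 26 of 31 genes were above 0. On the long arm it was 0.19, or 1.14-fold, and 21 of 27 genes were above 0, against 49.8% of all tested genes. For 6WP against WT cells the medians were 0.064 on the short arm (19 of 31 genes above 0) and 0.12 on the long arm (19 of 27). This short arm value lay below those of both 6WP libraries, which a median over genes allows. For 6WP against AM cells they were -0.27 on the short arm (7 of 31 above 0) and -0.11 on the long arm (11 of 27). Pooled over the groups, the SD of a shift between replicate libraries was 0.021 for the short arm and 0.10 for the long arm. The genes were chosen with these differences known, so no shift is tested against these SDs. A left-out library moved the short arm shift by more than its SD in some cases. Without WT replicate 1 or 2 it was 0.45 or 0.34 for AM, and 0.12 or 0.055 for 6WP, against WT cells. The long arm spread came mostly from the 6WP libraries. Both long arm values of 6WP cells were close in size to the long arm SD.

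The arms can also be compared inside a library, where a scaling common to all genes drops out. The short arm median exceeded the long arm median by 0.19 and 0.21 in the AM libraries. In 6WP cells this difference was 0.12 in replicate 1 and -0.12 in replicate 2. In WT cells it was -0.0020 and 0.0020, which mirror each other by construction. The AM libraries thus lay together and above the WT libraries, and the 6WP libraries lay on either side of them. The unlisted genes did not share this order, with -0.11 and 0.12 in AM replicates 1 and 2. For the group means of the listed genes the short arm exceeded the long arm by 0.21 in AM against WT cells, and by 0.083 with means over genes in place of medians.

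The same order was seen without any median. The listed short arm genes held 0.248% and 0.240% of all WT counts, 0.304% and 0.297% of all AM counts, and 0.269% and 0.265% of all 6WP counts. None of these ranges overlap. The listed long arm genes held 0.251% and 0.247% in WT, 0.291% and 0.279% in AM, and 0.250% and 0.289% in 6WP libraries, where 6WP replicate 1 lay within the WT values and replicate 2 within the AM values. Sums of this kind are led by genes with many counts.

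The orders of the group means are given as a description, since the genes were chosen with these differences known. Of 31 short arm genes, 23 had their highest group mean in AM cells, 6 in 6WP cells and 2 in WT cells. Among those with the highest mean in AM cells, 14 had a 6WP mean between those of AM and WT cells, and 9 had a 6WP mean below WT. On the long arm 12 genes were highest in AM, 11 in 6WP and 4 in WT cells. The shares of these orders over all tested genes were not computed, and nothing is read from the counts.

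**Figure D2:**
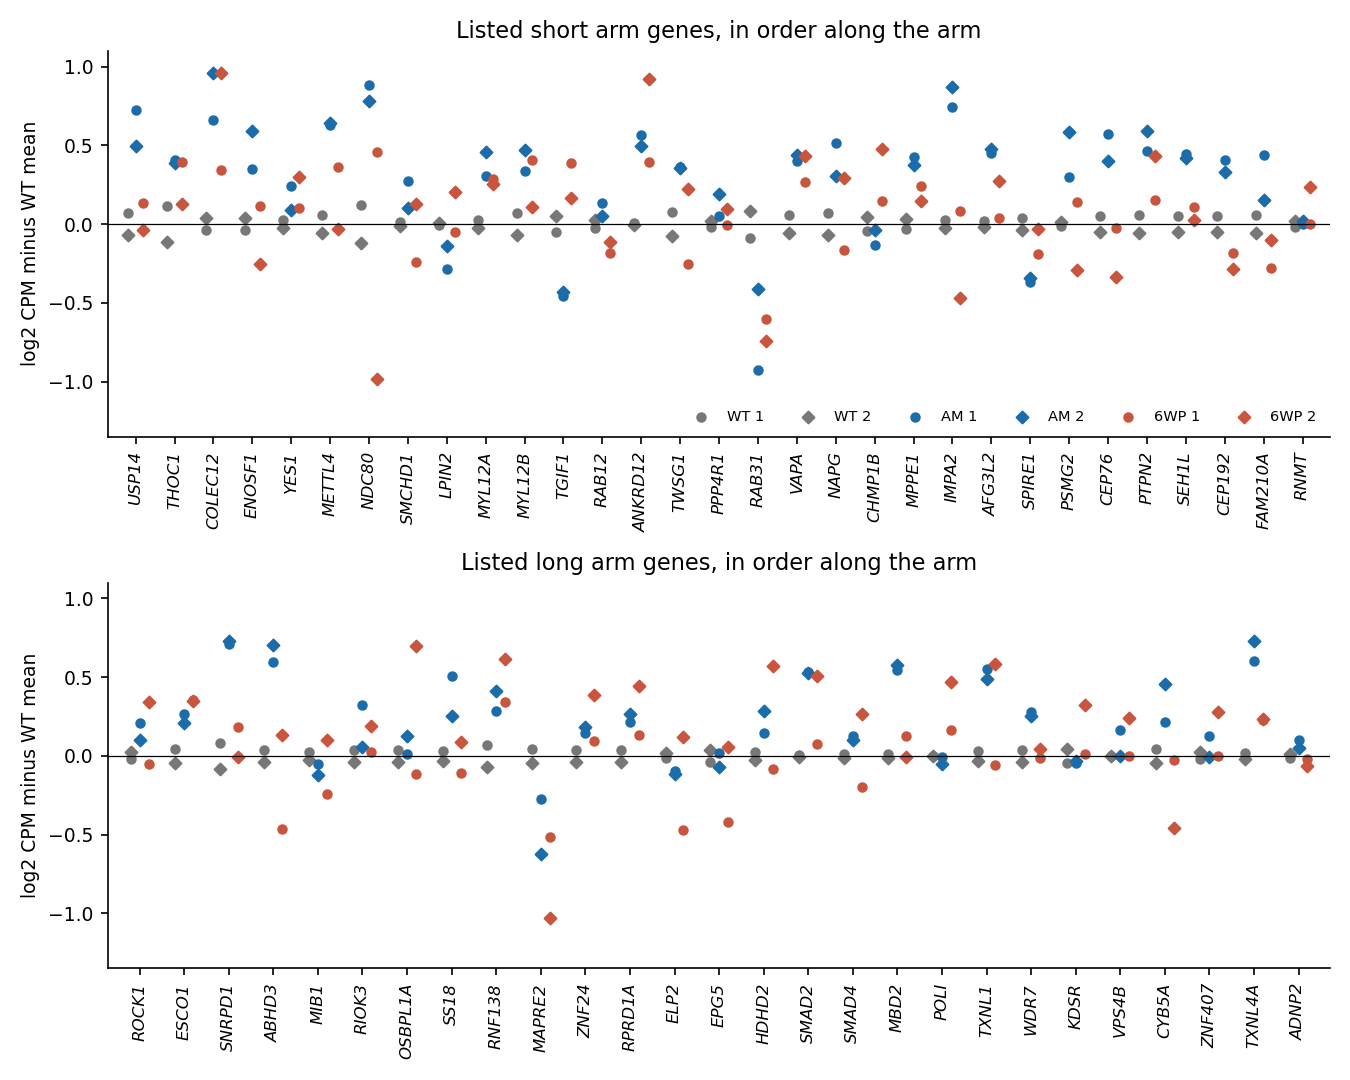
Each point is 1 library of 1 gene, as log2 CPM minus the mean of the WT libraries, for the 31 tested short arm genes (top) and the 27 long arm genes (bottom) in order along the arm. Most short arm genes have both AM libraries (blue) above the WT libraries (grey), while RAB31, TGIF1, SPIRE1 and LPIN2 lie below, and on the long arm replicate 2 of 6WP (red diamonds) often lies above replicate 1.

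Both AM libraries lay above both WT libraries for 25 short arm and 18 long arm genes, beside 36.9% of all tested genes, and below them for 4 short arm and 4 long arm genes, beside another 36.9%. In 6WP against WT cells, 12 short arm and 7 long arm genes were higher without overlap (25.5% of all genes) and 4 and 2 were lower (25.2%). In 6WP against AM cells, 4 short arm and 3 long arm genes were higher without overlap (33.8% of all genes) and 17 and 9 were lower (28.5%). Since these comparisons took part in the choice of the genes, nothing is read from the counts.

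The quasi-likelihood test of edgeR, at a Benjamini-Hochberg adjusted p under 0.05 over all tested genes, called 9 short arm and 5 long arm genes higher in AM than in WT cells, and 0 lower. It called 7.74% of all genes higher and 9.93% lower. In 6WP against WT cells it called 0 listed genes in either direction, where 1.63% of all genes were called higher and 1.37% lower. The Wald test of DESeq2 called 2 short arm genes higher there and, on the long arm, 1 higher and 1 lower. Of all 14672 genes it called 532 higher and 592 lower. In 6WP against AM cells, the quasi-likelihood test called 1 short arm gene higher and 7 lower, and 5 long arm genes lower. Beside these, 11.7% of all genes were called higher and 9.68% lower. The counts of calls in each comparison depended on single libraries, for the listed genes and for all tested genes alike. The ranges over all tested genes are given below. These calls rest on the same libraries as the choice of genes and are not independent evidence of it.

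Among the genes of mitosis and the cytoskeleton, 5 of 6 on the short arm and 2 of 3 on the long arm had a difference of AM from WT cells above the median of all genes. NDC80 encodes a kinetochore protein that binds spindle microtubules and lies on chromosome 18 from 2571557 to 2616635 on the plus strand (GRCh38, as are all positions here). It had 55.4 and 46.7 CPM in WT replicates 1 and 2, 93.9 and 87.4 in those of AM and 69.8 and 25.7 in those of 6WP. The AM libraries were higher than all others, and the 6WP libraries differed more than 2-fold from each other, the only listed gene that did. Its log2 fold change was 0.83 (SE 0.37) in AM and -0.10 (SE 0.37) in 6WP against WT cells. Every SE given here uses a spread shared by all groups. An SE of AM against WT cells therefore also carries the distance between the 6WP libraries. Without 6WP replicate 2 the log2 fold change of NDC80 in 6WP against WT cells was 0.42.

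CEP192, which recruits factors that build microtubules at the centrosome, had 57.2 and 53.3 CPM in WT, 73.3 and 69.5 in AM and 48.6 and 45.2 in 6WP cells. CEP76, a centriolar protein that limits centriole duplication, had 12.5 and 11.7 CPM in WT, 17.9 and 15.9 in AM and 11.9 and 9.55 in 6WP cells. Both were highest in AM cells, and CEP192 was lower in 6WP than in WT cells without overlap. Their log2 fold changes against WT were 0.37 (SE 0.11) and 0.48 (SE 0.16) in AM cells, and -0.24 (SE 0.11) and -0.18 (SE 0.17) in 6WP cells. Exons of CEP76 overlap those of PSMG2 on the opposite strand.

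MYL12A and MYL12B are neighbouring genes for nearly identical regulatory light chains of non-muscle myosin, between which reads can be divided by the counting. MYL12A had 170.3 and 165 CPM in WT replicates 1 and 2, 207 and 230.1 in those of AM and 205 and 199.9 in those of 6WP. MYL12B had 338 and 306 CPM in WT replicates 1 and 2, 407 and 446 in those of AM and 427 and 347 in those of 6WP. For both, each AM and each 6WP library was above each WT library, with log2 fold changes of 0.38 (SE 0.10) and 0.40 (SE 0.13) in AM cells and 0.27 (SE 0.10) and 0.26 (SE 0.13) in 6WP cells.

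SPIRE1, an actin nucleator, was the exception of this group on the short arm, with 32.5 and 30.9 CPM in WT, 24.6 and 25.03 in AM and 27.7 and 31.05 in 6WP cells. Both AM libraries were below both WT libraries, and the 6WP libraries overlapped WT (log2 fold changes -0.35, SE 0.12, and -0.11, SE 0.12). On the long arm, MAPRE2, which encodes a microtubule end-binding protein and lies on chromosome 18 from 34976928 to 35143470 on the plus strand, had 41.6 and 39.05 CPM in WT replicates 1 and 2, 33.3 and 26.1 in those of AM and 28.1 and 19.8 in those of 6WP. All AM and 6WP libraries were below WT, and its log2 fold changes of -0.44 (SE 0.19) and -0.75 (SE 0.19) were the lowest of the listed long arm genes in both comparisons.

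ROCK1, a kinase that acts on actomyosin contraction and is the long arm gene closest to the centromere in the list, had 72.8 and 75.02 CPM in WT, 85.3 and 79.1 in AM and 71.2 and 93.7 in 6WP cells. The AM libraries were higher than WT without overlap, by 0.15 (SE 0.14), and the 6WP libraries lay on both sides of WT. A partial copy, ROCK1P1, lies on the short arm, so reads of ROCK1 could have been divided between the arms by the counting. ESCO1, an acetyltransferase that establishes sister chromatid cohesion, had 29.9 and 28.1 CPM in WT, 34.9 and 33.5 in AM and 37.03 and 36.9 in 6WP cells. Its 6WP libraries were the highest, with a log2 fold change of 0.35 (SE 0.11) against WT.

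Of the genes of RNA processing and export, 4 of 4 on the short arm and 2 of 3 on the long arm lay above the median of all genes in AM against WT cells. METTL4, a methyltransferase for N6-adenine methylation in RNA, had 26.1 and 24.1 CPM in WT replicates 1 and 2, 38.7 and 39.1 in those of AM and 32.3 and 24.6 in those of 6WP. Its AM libraries were above all others, and its log2 fold changes were 0.63 (SE 0.15) in AM and 0.18 (SE 0.15) in 6WP against WT cells. THOC1, of the THO complex that couples transcription to mRNA export, and SEH1L, a nucleoporin, had log2 fold changes of 0.39 (SE 0.14) and 0.43 (SE 0.10) in AM cells. RNMT, which methylates the mRNA cap, had 0.0085 (SE 0.12), and its AM and WT libraries overlapped.

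Among the listed long arm genes, splicing factors held 2 of the 3 largest differences between AM and WT cells. SNRPD1, a core Sm protein of spliceosomal snRNPs on chromosome 18 from 21612314 to 21633524 on the plus strand, had 128 and 115 CPM in WT replicates 1 and 2, 198 and 201 in those of AM and 137 and 120.4 in those of 6WP. TXNL4A, a component of the U5 snRNP near the end of the long arm on chromosome 18 from 79970813 to 80033949 on the minus strand, had 98.9 and 96.2 CPM in WT replicates 1 and 2, 148 and 162 in those of AM and 114 and 115 in those of 6WP. In both genes the AM libraries were above all other libraries, with log2 fold changes against WT of 0.72 (SE 0.12) and 0.67 (SE 0.10). In 6WP cells they were 0.086 (SE 0.11) and 0.23 (SE 0.10), with overlap with WT for SNRPD1 and none for TXNL4A. ELP2, a subunit of the Elongator complex that modifies tRNA, had 93.6 and 95.6 CPM in WT, 88.4 and 87.3 in AM and 68.1 and 103 in 6WP cells. Its AM libraries were below WT, and its 6WP libraries were the lowest and the highest of all.

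In signalling and adhesion, 5 of 6 tested short arm genes and 3 of 4 long arm genes were above the median of all genes in AM against WT cells. COLEC12, a scavenger receptor of the C-type lectin family on chromosome 18 from 316737 to 500722 on the minus strand, had 54.9 and 57.8 CPM in WT replicates 1 and 2, 89.04 and 109 in those of AM and 71.4 and 109 in those of 6WP. All AM and 6WP libraries were above WT, by 0.82 (SE 0.20) in AM and 0.68 (SE 0.20) in 6WP cells, and the 6WP libraries lay far apart. YES1, a Src family tyrosine kinase, had 129 and 125 CPM in WT, 149.9 and 135 in AM and 136 and 156 in 6WP cells. Its AM and 6WP libraries were above WT with small differences, 0.17 (SE 0.12) and 0.20 (SE 0.12). PTPN2, a phosphatase that acts against JAK-STAT signalling, had 30.8 and 28.4 CPM in WT, 40.8 and 44.5 in AM and 32.8 and 39.8 in 6WP cells. Both AM libraries were the highest, and the log2 fold changes were 0.53 (SE 0.14) in AM and 0.30 (SE 0.14) in 6WP cells.

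TGIF1, a homeobox repressor that limits TGF-beta and SMAD responses, moved against the arm. It lies on chromosome 18 from 3411608 to 3459978 on the plus strand and had 26.1 and 28.1 CPM in WT replicates 1 and 2, 19.7 and 20.1 in those of AM and 35.4 and 30.3 in those of 6WP. The AM libraries were the lowest and the 6WP libraries the highest, without overlap between any groups. Its log2 fold changes were -0.44 (SE 0.13) in AM and 0.28 (SE 0.13) in 6WP against WT cells, and 0.72 (SE 0.13) in 6WP against AM cells. TWSG1, a secreted regulator of BMP signalling, and PPP4R1, a regulatory subunit of protein phosphatase 4, had 0.36 (SE 0.16) and 0.12 (SE 0.11) in AM cells.

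SMAD2 and SMAD4, which carry TGF-beta signals to the nucleus and act as tumour suppressors, differed from each other. SMAD2, on chromosome 18 from 47808957 to 47931146 on the minus strand, had 121 and 119 CPM in WT replicates 1 and 2, 173 and 173 in those of AM and 127 and 170.5 in those of 6WP. SMAD4, on chromosome 18 from 51028528 to 51085045 on the plus strand, had 135 and 132 CPM in WT replicates 1 and 2, 145 and 143 in those of AM and 116 and 161 in those of 6WP. In AM cells both were above WT without overlap, by 0.53 (SE 0.14) for SMAD2 and 0.11 (SE 0.15) for SMAD4. In 6WP cells SMAD2 stayed above both WT libraries, by 0.31 (SE 0.14), while the SMAD4 libraries lay below and above WT. MIB1, a ubiquitin ligase that activates Notch ligands, had 117 and 113 CPM in WT, 111 and 106 in AM and 97.7 and 124 in 6WP cells. Its AM libraries were slightly below WT, by -0.085 (SE 0.13). RIOK3, an atypical protein kinase, had 0.19 (SE 0.13) in AM cells.

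Of the genes of lipids, mitochondria and metabolism, 5 of 6 short arm and 4 of 5 long arm genes were above the median of all genes in AM against WT cells. IMPA2, an inositol monophosphatase on chromosome 18 from 11981025 to 12030877 on the plus strand, had 38.6 and 37.3 CPM in WT replicates 1 and 2, 63.5 and 69.3 in those of AM and 40.2 and 27.3 in those of 6WP. The AM libraries were far above the others, and the 6WP libraries lay above and below WT, with log2 fold changes of 0.81 (SE 0.18) in AM and -0.17 (SE 0.18) in 6WP against WT cells. LPIN2, a phosphatidate phosphatase, had 28.97 and 29.3 CPM in WT, 23.9 and 26.4 in AM and 28.1 and 33.5 in 6WP cells. It was lower in AM than in WT cells without overlap, by -0.21 (SE 0.13). FAM210A, a protein of the mitochondrial inner membrane, had 34.8 and 32.1 CPM in WT, 45.3 and 37.2 in AM and 27.6 and 31.1 in 6WP cells. It was above WT in both AM libraries and below WT in both 6WP libraries, by 0.30 (SE 0.14) and -0.19 (SE 0.14). The others were AFG3L2, a mitochondrial protease, MPPE1, which trims GPI anchors, and ENOSF1, which is transcribed antisense to TYMS. Their AM differences lay between 0.40 for MPPE1 and 0.48 for ENOSF1.

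On the long arm, ABHD3, a phospholipase on chromosome 18 from 21650901 to 21704780 on the minus strand, had 32.2 and 30.5 CPM in WT replicates 1 and 2, 47.4 and 51.02 in those of AM and 22.7 and 34.4 in those of 6WP. Its AM libraries were the highest and its 6WP libraries lay on both sides of WT (log2 fold changes 0.65, SE 0.19, and -0.13, SE 0.19). CYB5A, cytochrome b5, had 64.5 and 60.7 CPM in WT, 72.7 and 85.9 in AM and 61.6 and 45.6 in 6WP cells. Both AM libraries were above WT, by 0.34 (SE 0.16), whereas the 6WP difference was -0.22 (SE 0.16) with overlap. OSBPL1A, an oxysterol-binding protein homologue, had 33.8 and 32.1 CPM in WT, 33.2 and 35.9 in AM and 30.3 and 53.3 in 6WP cells. Only its 6WP replicate 2 stood away from the other 5 libraries. KDSR, a reductase of sphingolipid synthesis, had 91.3 and 96.98 CPM in WT, 91.3 and 91.9 in AM and 94.99 and 118 in 6WP cells, which overlapped between WT and both other groups. HDHD2, a hydrolase of the haloacid dehalogenase family, had 0.22 (SE 0.20) in AM cells.

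Chromatin, transcription and DNA genes were above the median of all genes in AM against WT cells in 2 of 2 cases on the short arm and 6 of 7 on the long arm. ANKRD12, a nuclear corepressor, had 17.4 and 17.3 CPM in WT, 25.6 and 24.5 in AM and 22.8 and 32.8 in 6WP cells. All AM and 6WP libraries were above WT, by 0.53 (SE 0.18) and 0.68 (SE 0.18). SMCHD1, which silences the inactive X chromosome and gene clusters, had 181 and 178 CPM in WT, 217 and 192 in AM and 152 and 196 in 6WP cells. It was slightly higher in AM cells without overlap, by 0.19 (SE 0.14), and its 6WP libraries lay on both sides of WT. MBD2, which binds methylated DNA, had 68.98 and 67.8 CPM in WT, 99.6 and 102 in AM and 74.6 and 68.2 in 6WP cells. Its AM libraries were the highest, at 0.56 (SE 0.11) above WT, and its 6WP difference was 0.062 (SE 0.11).

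POLI, a DNA polymerase that copies past damaged bases, behaved otherwise, with 39.96 and 39.9 CPM in WT, 39.7 and 38.5 in AM and 44.7 and 55.4 in 6WP cells. The AM libraries lay just below WT (-0.030, SE 0.13) and both 6WP libraries above it (0.33, SE 0.13). The AM differences of the other long arm genes of this group were 0.39 for SS18, a subunit of BAF chromatin remodelling complexes, 0.24 for RPRD1A, which binds the tail of RNA polymerase II, and 0.16, 0.062 and 0.075 for the zinc finger proteins ZNF24, ZNF407 and ADNP2.

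Genes of ubiquitin and the proteasome were above the median of all genes in AM against WT cells in 2 of 2 cases on each arm. USP14, a deubiquitinase of the proteasome and the first gene of the list, and PSMG2, a proteasome assembly chaperone, had AM differences of 0.61 (SE 0.12) and 0.45 (SE 0.17), and 6WP differences of 0.048 and -0.060. RNF138, a ubiquitin ligase that acts at DNA double-strand breaks, had 56.3 and 51.3 CPM in WT, 65.6 and 71.4 in AM and 68.2 and 82.4 in 6WP cells. All AM and 6WP libraries were above WT, by 0.35 (SE 0.13) in AM and 0.49 (SE 0.13) in 6WP cells, the highest of the listed long arm genes in 6WP cells. TXNL1, a thioredoxin-like protein bound to the proteasome, had 0.52 (SE 0.19) in AM cells.

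Of the vesicle traffic genes, 3 of 5 on the short arm and 2 of 3 on the long arm were above the median of all genes in AM against WT cells. RAB31, a GTPase of trans-Golgi and endosome transport on chromosome 18 from 9708275 to 9862551 on the plus strand, had 10.4 and 11.7 CPM in WT replicates 1 and 2, 5.81 and 8.30 in those of AM and 7.27 and 6.59 in those of 6WP. All AM and 6WP libraries were below WT, by -0.64 (SE 0.21) and -0.67 (SE 0.21), the lowest values of the listed short arm genes. VAPA, which tethers the ER to other membranes, had 226 and 209 CPM in WT, 287 and 295 in AM and 261 and 293 in 6WP cells. It was higher than WT in all AM and 6WP libraries, by 0.42 (SE 0.11) and 0.35 (SE 0.11).

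CHMP1B, an ESCRT-III protein, had 117 and 124 CPM in WT, 110.0 and 118 in AM and 134 and 168 in 6WP cells. Its AM libraries overlapped WT and its 6WP libraries were higher, by 0.32 (SE 0.13). EPG5, a tether of autophagosomes to late endosomes and lysosomes, had 45.00 and 47.3 CPM in WT, 46.7 and 44.01 in AM and 34.4 and 47.9 in 6WP cells, with overlap between all groups. The AM differences of the others were 0.092 for the GTPase RAB12, 0.41 for gamma-SNAP (NAPG), 0.27 for WDR7, a partner of the vacuolar proton pump, and 0.083 for VPS4B, the ATPase that disassembles ESCRT-III.

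Several of these genes start back to back with a neighbour. There were 8 such pairs of tested genes with at least 1 listed gene, the first gene on the minus and the second on the plus strand, whose annotated starts were less than 1000 bp apart or overlapped by less than that. In 5 pairs both genes were listed, and in 2 of these, METTL4 with NDC80 on the short arm and ABHD3 with MIB1 on the long arm, the annotated genes did not overlap. The bases between the starts of these 2 pairs are shown because the pairs differ in how alike their genes were in AM against WT cells. Both stretches are plus strand reference sequence of GRCh38 (hg38), the first at chr18:2571510-2571556 and the second at chr18:21704781-21704956. They lie between the first exons and belong to no annotated exon of either gene. Capitals mark TGACGTCA in the first stretch, chosen after the sequence was seen, and GGGCGG or its reverse complement CCGCCC in the second.

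METTL4 and NDC80: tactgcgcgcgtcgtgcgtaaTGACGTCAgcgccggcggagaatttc

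ABHD3 and MIB1: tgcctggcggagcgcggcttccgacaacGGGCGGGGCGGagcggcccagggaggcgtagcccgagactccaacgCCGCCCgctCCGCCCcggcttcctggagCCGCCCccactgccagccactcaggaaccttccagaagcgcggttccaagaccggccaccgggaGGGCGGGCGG

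METTL4 and NDC80, 48 bp apart, were both higher in AM than in WT cells, by 0.63 and 0.83, and in 6WP cells the differences were 0.18 and -0.10. ABHD3 and MIB1, 177 bp apart, had 0.65 and -0.085 in AM cells and -0.13 and -0.061 in 6WP cells. Both members of the first pair were thus higher in AM cells, where of the second pair only ABHD3 was. The AM difference of MIB1 was smaller than its SE of 0.13. The 6WP value of NDC80 rested on single libraries, being 0.42 without 6WP replicate 2 and -1.01 without 6WP replicate 1, and likeness within the pairs is not read from 6WP cells. Of 47 bases between the first pair, 61.7% were G or C, against 75.6% of 176 bases between the second. The letters GGGCGG were searched on both strands, with 7 matches in the second stretch, some overlapping, and 0 in the first. CCAAT and TTTGAA, also searched on both strands, were in neither stretch. Windows of the same lengths just before the start of 35116 genes (RefSeq, promoter table) held GGGCGG in 18.1% of cases at 47 bases and in 38.7% at 176 bases, CCAAT in 6.41% and 25.9%, TTTGAA in 2.10% and 8.90%, and TGACGTCA in 0.478% and 1.48%. A match describes letters only.

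In the other 3 pairs of listed genes the exons overlap on opposite strands, and without a stated strand setting of the counting their reads cannot be told apart. SPIRE1 and PSMG2 had -0.35 and 0.45 in AM against WT cells, FAM210A and RNMT had 0.30 and 0.0085, and TXNL1 and WDR7 had 0.52 and 0.27. The signs thus differed within the first of these pairs and were alike in the last. For RNMT, whose AM and WT libraries overlapped, no sign is read.

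Exons of 20 of the 31 short arm genes and 9 of the 27 long arm genes overlap an exon of another annotated gene. Over the 11 short arm and 18 long arm genes without any overlap, the shifts of AM against WT cells were 0.41 and 0.18. Those of 6WP against WT cells were 0.038 and 0.093. For 6WP against AM cells the short arm shift was -0.39 over the genes without overlap and -0.27 over all listed ones. Whether shared reads had a part in the shifts was not tested.

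The listed genes are a part of each arm, and the unlisted genes showed less of the shift. Of the short arm up to RNMT, 51 genes were tested, and their shift in AM against WT cells was 0.38. The 20 unlisted ones had a shift of 0.080, with 0.027 and 0.24 in the AM libraries, and 11 of them were above 0. Their median level was 1.02 log2 CPM, against 5.83 for the listed short arm genes, of which none was below 3.03. A comparison at 3 log2 CPM or more, relative to all genes at that level and chosen after seeing the data, gave 0.34 for the 31 listed genes and 0.21 for the 7 unlisted ones, of which 4 were above the median of all genes. The level of the genes thus moved with the choice of list, and its part in the shift was not tested.

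NDUFV2, TYMS and TUBB6 were among the unlisted short arm genes with the most counts, and all 3 were higher in both AM libraries than in both WT libraries. TYMS, thymidylate synthase, which makes a DNA precursor and overlaps ENOSF1 on the opposite strand, had 154 and 141 CPM in WT replicates 1 and 2, 363 and 403 in those of AM and 167 and 90.4 in those of 6WP. Its AM libraries were more than 2-fold above WT, with a log2 fold change of 1.38 (SE 0.25), and its 6WP libraries lay on both sides of WT. NDUFV2, a subunit of respiratory complex I, had 196 and 183 CPM in WT, 245 and 274 in AM and 191 and 222 in 6WP cells. TUBB6, a beta-tubulin, had 45.2 and 43.6 CPM in WT, 59.2 and 69.2 in AM and 49.97 and 38.3 in 6WP cells. The AM differences of NDUFV2 and TUBB6, 0.45 and 0.53, lay within the range of the listed genes.

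Of the long arm, 147 genes were tested, with a shift of 0.16 in AM against WT cells, and 0.13 for the 120 unlisted ones. In the AM libraries the unlisted genes had 0.13 and 0.11. The 4 unlisted long arm genes with the most counts were ATP5A1, SYT4, SLC39A6 and NARS. ATP5A1, the alpha subunit of mitochondrial ATP synthase, had 1304 and 1226 CPM in WT, 1658 and 1709 in AM and 1304 and 1377 in 6WP cells, and NARS, cytosolic asparaginyl-tRNA synthetase, had 383 and 346 CPM in WT, 562 and 561 in AM and 573 and 503 in 6WP cells. SYT4, a synaptotagmin of secretory vesicles, had 1014 and 931 CPM in WT, 974 and 1035 in AM and 1400.5 and 1656 in 6WP cells, and SLC39A6, a zinc transporter, had 493 and 467 CPM in WT, 534 and 569 in AM and 435 and 490.0 in 6WP cells. In AM cells ATP5A1, NARS and SLC39A6 were above WT without overlap, and SYT4 overlapped WT there and was above it in 6WP cells.

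Against the other autosomes, the short arm stood highest in AM cells. The medians of the tested genes of the 21 other autosomes, relative to all genes, lay between -0.13 (chromosome 13) and 0.11 (chromosome 16) in AM against WT cells, and the arms of chromosome 18 had 0.38 and 0.16. In 6WP against WT cells the other autosomes lay between -0.14 (chromosome 13) and 0.12 (chromosome 19), and both arms, at 0.057 and 0.088, were inside that range. In 6WP against AM cells the short arm, at -0.20, was below all of them, the lowest being -0.081 (chromosome 22), and the long arm at -0.046 was inside. The other chromosomes were taken whole, with many more genes than the short arm. Of the 51 short arm genes, 31 were listed with the group differences known. The 20 unlisted ones alone had 0.080 in AM against WT cells, inside the range of the other autosomes. The rank of the short arm is thus a description and no support for the shift.

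Stretches of 51 neighbouring tested genes, as many as were tested on the short arm up to RNMT, varied more than whole chromosomes. They were chosen after seeing the data, and 244 such stretches on the other autosomes ranged from -0.64 to 0.41 in AM against WT cells. The highest, on chromosome 16, was the only stretch to exceed the short arm value of 0.38. In 6WP against WT cells they ranged from -0.32 to 0.35. In 6WP against AM cells they ranged from -0.23 to 0.37, and 2 of the 244 lay below the short arm value of -0.20. Most short arm genes were listed with these differences known and the stretches were not, so nothing is read from these ranks.

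**Figure D3:**
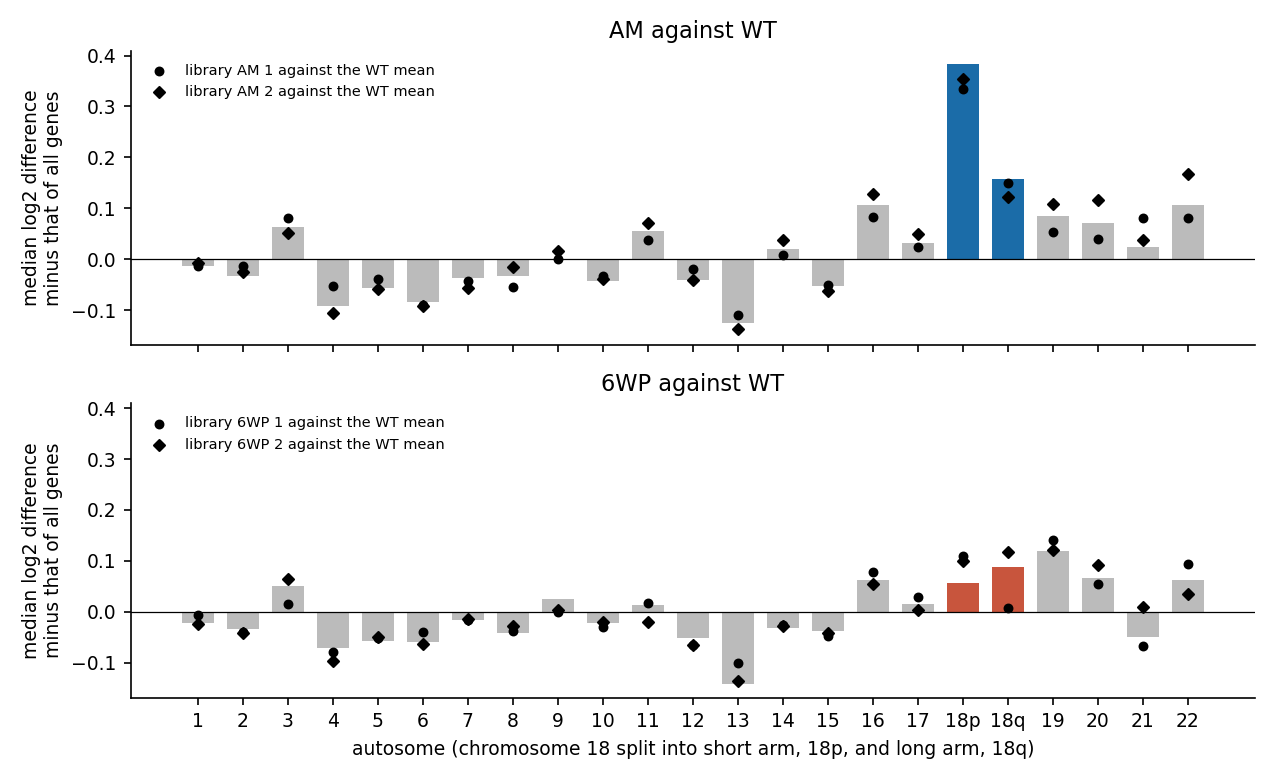
Bars show the median log2 difference from WT cells of the tested genes of each autosome, with chromosome 18 split into its arms, relative to the median of all tested genes, for AM (top) and 6WP cells (bottom), and points show the 2 libraries. The short arm bar at 0.38 is above all other autosomes in AM cells, and both arms lie within their range in 6WP cells. That bar includes 31 genes listed with this difference known, and its 20 unlisted genes alone had 0.080.

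Along the chromosome the difference between AM and WT cells was not even. The median of 9 neighbouring tested genes, listed or not, was 0.47 to 0.53 around TYMS, ENOSF1 and YES1 near the end of the short arm. It was between -0.44 and -0.21 from MYOM1 to ARHGAP28, a region with several genes that were lower in AM cells, among them MYOM1, DLGAP1 and ARHGAP28. MYOM1 held only 4 to 16 counts per library. MYL12A and MYL12B in the same region were higher in AM cells, by 0.38 and 0.41 relative to all genes. It was between 0.28 and 0.48 from SOGA2 to RNMT. In windows of 10 Mb the median was 0.28 over the first 35 genes and 0.41 over the next 19, which include 3 genes between the listed arms. On the long arm the windows ranged from -0.070 (27 genes starting between 30 and 40 Mb) to 0.25 (24 genes between 40 and 50 Mb). In 6WP against WT cells the windows of at least 10 genes lay between 0.057 and 0.16 over the whole chromosome.

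**Figure D4:**
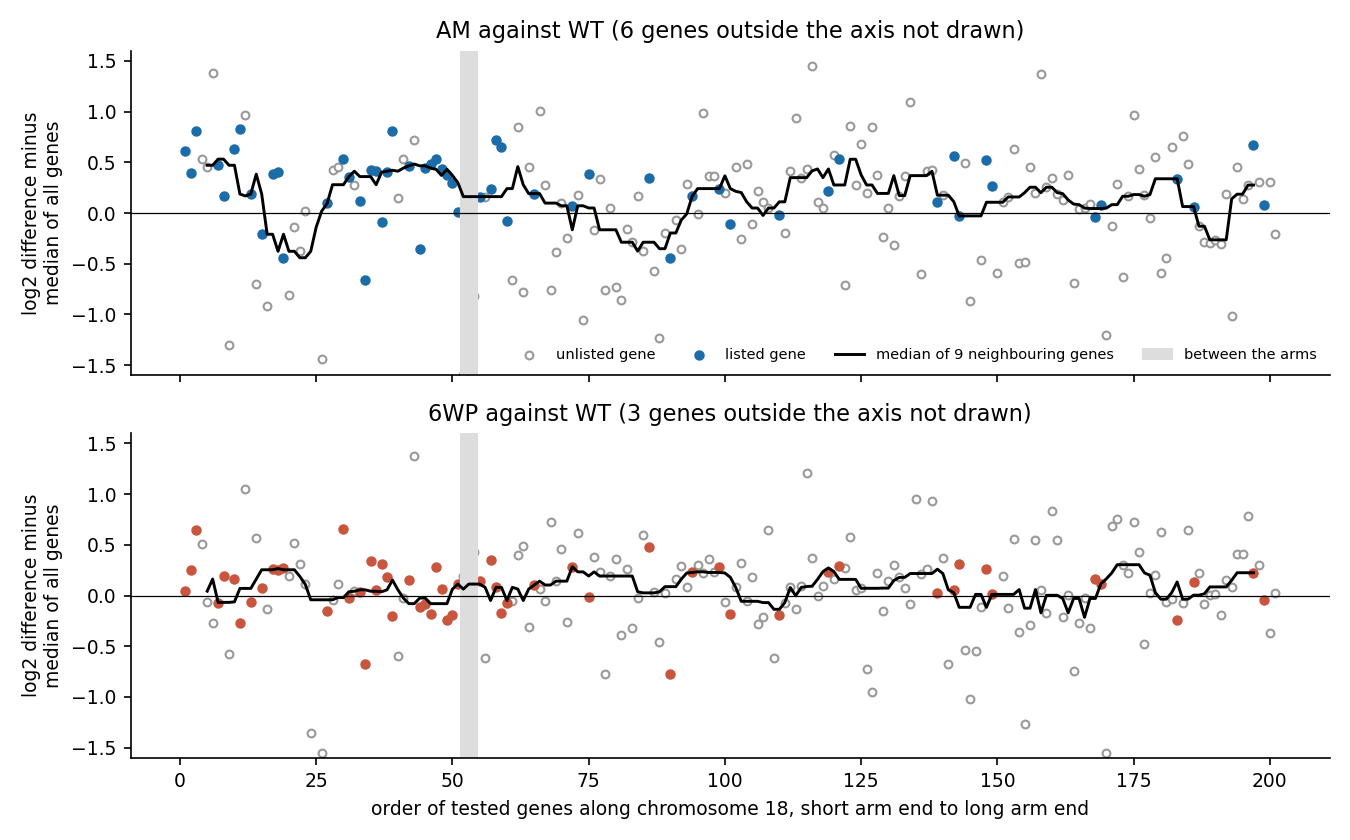
The log2 difference from WT cells of each tested chromosome 18 gene, relative to the median of all tested genes, is plotted in gene order for AM (top) and 6WP cells (bottom), with the median of 9 neighbouring genes as a line, and 6 and 3 genes beyond the axis are left out. In AM cells the line is high at both ends of the stretch from USP14 to RNMT and negative in between, and in 6WP cells it stays closer to 0. At MC5R, ZNF519 and ANKRD30B, between the listed arms, the AM line is at 0.16.

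The listed genes shared properties that the choice did not name. The median GC content of their exons was 41.5% on the short arm and 41.1% on the long arm, against 48.5% over all tested genes, and their median exon lengths were 6773 and 8242 bases against 5322. The unlisted genes had 49.8% and 4490.5 bases on the short arm, and 43.6% and 7525 bases on the long arm. On the long arm these properties were thus not particular to the listed genes. With GC content taken out of each library by a smooth curve, the short arm shift of AM against WT cells was 0.45, and with exon length taken out it was 0.44. The same corrections moved the short arm shift of 6WP against WT cells from 0.064 to 0.14 and 0.12. Both corrections left the short arm above the long arm in AM cells. WT expression of the listed genes spanned 11.1 to 322 CPM on the short arm and 15.2 to 330.0 CPM on the long arm.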

How the data were processed

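RNA-seq counts of 6 libraries from 22Rv1 cells were used. The deposited values are raw counts for each gene symbol, which the authors made from 100 bp single end reads aligned to hg38 with STAR 2.5.3a. The submitters' processing notes also name StringTie 1.3.3, featureCounts 1.5.3, Subread, edgeR 3.22.3 and R 3.5.0. The library kit was stranded, and the strand setting and annotation of the counting are not given in the sources used here. No column was left out (0 unused). Groups followed the labels.

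Genes were kept by filterByExpr (14672), scaled by TMM and fitted over all 6 libraries with the quasi-likelihood model of edgeR 4.0.16 in R 4.3.3 (limma 3.58.1), with DESeq2 1.42.0 as an alternative. The p-values were two-sided and adjusted by Benjamini-Hochberg over all tested genes at 0.05, and each SE was taken from the log2 fold change and the root of its F statistic. The groups shared an estimate of the spread of each gene, so tests and SEs of AM against WT cells include the spread of the 6WP libraries. The smallest p of an exact permutation test of 2 libraries against 2 is 0.333. Shifts are medians of log2 CPM differences with a prior count of 2, minus the median of all tested genes. Positions, exon GC content and lengths came from GENCODE release 44, which 21708 of 29804 symbols matched directly and 1512 through RefSeq synonyms, 329 of them on chromosome 18. Arms were divided between RNMT and ROCK1, and 3 tested genes between these were left unassigned. GC and length corrections were loess curves (span 0.5) over the 93.3% of tested genes with a value. The scripts were tested on simulated data.

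The 59 members, their role groups and the alternatives were chosen with earlier results of these data known. Values in every library were given for the 4 highest and 4 lowest members of each arm by log2 fold change in each comparison with WT and a mean of at least 1 log2 CPM, for SMAD2, SMAD4, ROCK1, SMCHD1, NDC80, YES1, TGIF1, PTPN2, MYL12A and MYL12B, and for the 4 unlisted genes of each arm with the highest mean, of which 1 is not reported here.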

Additional observations from a re-analysis of the deposited data

How the results depend on the processing

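Under the other scalings and filters the arm shifts moved by less than the spread between replicates. The scalings moved the median of all genes for 6WP against AM cells from 0.037 with TMM to 0.13 with upper quartile scaling. The numbers of genes called were the least stable values. They were 2593 of all tested genes for AM against WT, 440 for 6WP against WT and 3131 for 6WP against AM cells. With each library left out in turn, where a lone library is assumed to vary like the other groups, they lay between 67 and 6654, 0 and 3870, and 116 and 6807. A fit to only the 2 groups compared gave 6620, 96 and 1309, no filter beyond 1 count gave 894 for 6WP against WT cells, and the Wald test of DESeq2 gave 1124 there. Left-out libraries gave a short arm shift of 0.34 to 0.45 for AM against WT, 0.055 to 0.12 for 6WP against WT and -0.32 to -0.18 for 6WP against AM cells. The long arm shift lay between -0.020, without 6WP replicate 2, and 0.23, without 6WP replicate 1, for 6WP against WT cells, and between -0.25 and 0.061 for 6WP against AM cells in the same order. The arm difference for 6WP against WT cells lay between -0.12 and 0.12. The numbers of listed genes called for AM against WT cells also depended on the setting. A fit to only those 2 groups called 21 short arm genes higher and 3 lower, and 12 long arm genes higher and 1 lower. Of all 14228 genes tested in that fit, 3390 were called higher and 3230 lower. NDC80 in 6WP against WT cells turned from -0.098 to 0.42 without 6WP replicate 2, with -1.01 without 6WP replicate 1. With a GC offset the short arm shifts were 0.45 for AM against WT, 0.14 for 6WP against WT and -0.23 for 6WP against AM cells, and with a length offset 0.44, 0.12 and -0.25. With means in place of medians the long arm shift was 0.30 for AM against WT cells, the arm difference 0.083, and the shifts for 6WP against AM cells -0.31 on the short and -0.22 on the long arm. All tested short arm genes gave -0.20 for 6WP against AM cells. Unlisted genes alone gave short arm shifts of 0.080, 0.0091 and 0.0014 for AM against WT, 6WP against WT and 6WP against AM cells, and arm differences of -0.054 for AM against WT and 0.038 for 6WP against AM cells. Listed genes without exon overlap gave short arm shifts of 0.038 for 6WP against WT and -0.39 for 6WP against AM cells. At 3 log2 CPM or more, chosen after seeing the data, all tested genes gave short arm shifts of 0.33 for AM against WT and -0.20 for 6WP against AM cells and a long arm shift of -0.0029 for the latter. Unlisted genes at that level gave short arm shifts of 0.21, 0.11 and -0.19 in the 3 comparisons, an arm difference of 0.11 for AM against WT and a long arm shift of 0.011 for 6WP against AM cells, and the listed genes gave short arm shifts of 0.34 and -0.20 for AM against WT and 6WP against AM cells. The causes of these differences were not tested. After subtraction of the group mean, libraries with the same number correlated across genes at 0.040 between WT and AM, 0.087 between WT and 6WP and -0.021 between AM and 6WP cells, so the numbers were not taken to pair libraries. With a replicate block the numbers of genes called were 2485, 393 and 3069, and the group means behind the arm shifts stayed as they were, the short arm shift of AM against WT cells being 0.40. With 2 libraries a group, which of the 6WP replicates stands apart cannot be told, and levels of 3 counts or fewer were at the limit of detection.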

Other observations

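Among the whole chromosomes, chromosome 13 had the lowest median in both comparisons with WT cells, which share the WT libraries. Its tested genes lay at -0.11 and -0.14 in the AM libraries and at -0.10 and -0.14 in 6WP libraries, as differences from WT relative to all genes. Chromosome 19 was the highest of the other autosomes in both 6WP libraries, at 0.14 and 0.12. Both values are given as descriptions, chosen after the medians of all chromosomes had been seen.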
